A study of Mus musculus with 8 samples.

Results

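The genes described here are 2 neurotrophins, *Bdnf* and *Ntf3*, and 4 genes for receptors of neurotrophins and their precursors, *Ntrk2*, *Ntrk3*, *Ngfr* and *Sort1*. They were taken as a named set of 6 of the 50686 gene identifiers in the count table, and all 6 were found by the symbol that the GENCODE M21 annotation of GRCm38 pairs with the Ensembl identifier. RNA-seq was done on the ventral hippocampus of 8-week-old, group-housed male C57BL/6J mice (strain label C57B6/J). There were 4 mice given vehicle (libraries 1 to 4) and 4 given 3 mg/kg corticosterone (libraries 5 to 8), the main glucocorticoid (GC) of rodents, with 1 mouse per library. The injections were made in the morning and the tissue was taken 3 h later. No transgene or other agent is named for either group, and the comparison asks which transcripts differ 3 h after a rise in GC.

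Neurotrophins are secreted proteins that support the survival, growth and synaptic plasticity of neurons. BDNF, coded by *Bdnf*, acts on the receptor tyrosine kinase TrkB (*Ntrk2*), and neurotrophin-3 (*Ntf3*) acts mainly on TrkC (*Ntrk3*). The p75 neurotrophin receptor (*Ngfr*) binds all neurotrophins and, together with sortilin (*Sort1*), their uncleaved precursors. Sortilin also sorts proBDNF inside the cell. In the hippocampus, BDNF and TrkB are known for their part in long-term potentiation and in the effects of stress.

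Reads on genes totalled 17492159 to 19931987 per library, and genes varied between mice with a biological coefficient of variation of 0.111. The known GC target gene *Fkbp5*, a co-chaperone of the GC receptor, was the 1 gene of 16018 tested that passed an adjusted p of 0.05 (log2FC 0.76, standard error 0.097, adjusted p = 0.0481, edgeR's quasi-likelihood test with Benjamini-Hochberg adjustment). Its log2FC was 0.69 to 0.86 with 1 library left out, but its adjusted p was above 0.05 in 6 of these 8 fits (0.142 to 0.331, all but those without vehicle 1 and without corticosterone 5) and with at least 10 counts in every library (0.0530). In other fits the call was stronger. The adjusted p of *Fkbp5* was 1.5e-08 in DESeq2, the study's tool (log2FC 0.76). In edgeR's quasi-likelihood test it was 1.8e-06 with no filter on low counts and 0.0040 when corrected for GC content and transcript length. Reads that did not align uniquely made up 0.0699% to 0.111% of the vehicle libraries and only 0.0420% to 0.0536% of the corticosterone libraries. These ranges do not overlap, and their part in the values below was not tested. Corticosterone 5 stood apart from the other corticosterone libraries, with 1.48% of reads counted as ambiguous between genes against 1.25% to 1.28%. In the vehicle libraries this share was 1.64% to 1.67%, apart from vehicle 4 with 1.40%. The share thus went largely with the group. In the fits below with this share as covariate, its part and that of the treatment cannot be fully told apart. Without corticosterone 5, 1651 genes passed the threshold. Summed markers of microglia were 2737 to 2910 normalised counts after vehicle and 1670 to 2488 after corticosterone, and those of endothelial cells were 1304 to 1386 and 1059 to 1193, with no overlap in either (exact permutation test, two-sided p = 0.0286 each, the smallest that 4 mice against 4 allow). Taken singly, the microglia markers *Cx3cr1* (log2FC -0.76) and *P2ry12* (-0.47) did not overlap between groups, whereas *Tmem119* (-0.36) and *C1qa* (-0.13) did. Each of the 3 endothelial markers overlapped, with log2FC values of -0.72 for *Cldn5*, -0.15 for *Flt1* and -0.02 for *Pecam1*. In bulk tissue libraries such as these, fewer cells of a type and less RNA per cell cannot be told apart. In the other 10 marker lists the sums overlapped between groups, those of dentate granule cells, CA1 and CA3 pyramidal cells, interneurons and astrocytes among them. Single markers without overlap in these lists, named after their values were seen, were *C1ql2* (dentate granule cells, log2FC -0.42) and *Gja1* (astrocytes, -0.15). The others were *Pdgfra* (oligodendrocyte precursors, 0.20) and *Pdgfrb* (mural cells, -0.31), where 3.66% of all genes tested had no overlap. Markers of the hippocampal fields were present in every library, with sums of 3918 to 5374 for dentate granule cells, 9933 to 14460 for CA1 and 3817 to 4849 for CA3.

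The genes have related copies, and the sequences below show the longest stretch that each ligand shares with the other ligand and each Trk receptor with the other. The *Bdnf* sequence is chr2:109724065-109724149 on the plus strand, in the coding part of exon 2 of 2 of transcript Bdnf-201, and the *Ntf3* sequence is chr6:126101729-126101816 on the minus strand, in the coding part of exon 2 of 2. The *Ntrk2* sequence is chr13:59054367-59054465 on the plus strand (coding, exon 15 of 18) and the *Ntrk3* sequence is chr7:78250701-78250799 on the minus strand (coding, exon 14 of 17), all on GRCm38 and read 5′ to 3′ from the GENCODE M21 transcripts. Capitals mark the run of identical bases, 17 between the ligands and 23 between the Trk receptors.
Bdnf: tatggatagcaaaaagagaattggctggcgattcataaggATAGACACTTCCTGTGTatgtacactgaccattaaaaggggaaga
Ntf3: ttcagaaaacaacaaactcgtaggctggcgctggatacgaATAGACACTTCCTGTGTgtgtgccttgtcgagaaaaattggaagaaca
Ntrk2: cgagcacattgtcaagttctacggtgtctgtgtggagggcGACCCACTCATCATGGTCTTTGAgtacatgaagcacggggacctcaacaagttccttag
Ntrk3: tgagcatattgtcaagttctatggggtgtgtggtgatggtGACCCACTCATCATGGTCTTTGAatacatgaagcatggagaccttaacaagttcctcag
Over all 15 pairs of the 6 genes, the longest identical run was 27 bases, between *Ntrk2* and *Ngfr*. Only protein-coding transcripts were compared, in the sense direction. All runs were shorter than a read of 100 bases, so no full-length read matches such transcripts of 2 of these genes without a mismatch. Other transcripts and the opposite strand were not searched.

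None of the 6 genes was differentially expressed 3 h after corticosterone. All 6 passed the filter on low counts and 0 passed an adjusted p of 0.05 in edgeR's quasi-likelihood test, which called 0.00624% of all genes tested. At an unadjusted p under 0.05 there were 0 of the 6 in edgeR, against 9.03% of all genes tested, and 0 of the 6 in DESeq2, against 8.3% of all genes. DESeq2 also gave 0 calls at an adjusted p of 0.05, against 0.374% of all genes. The values of the groups overlapped for all 6 genes, where 3.66% of all genes tested had no overlap. Of the 6 log2FC values, 3 were below 0 (*Bdnf*, *Ntf3*, *Sort1*), against 49.3% of all genes tested, and 3 were above 0 (*Ntrk2*, *Ntrk3*, *Ngfr*). The median log2FC of the 6 was -0.0039, and that of all genes tested was 0.0036.

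**Figure D1:**
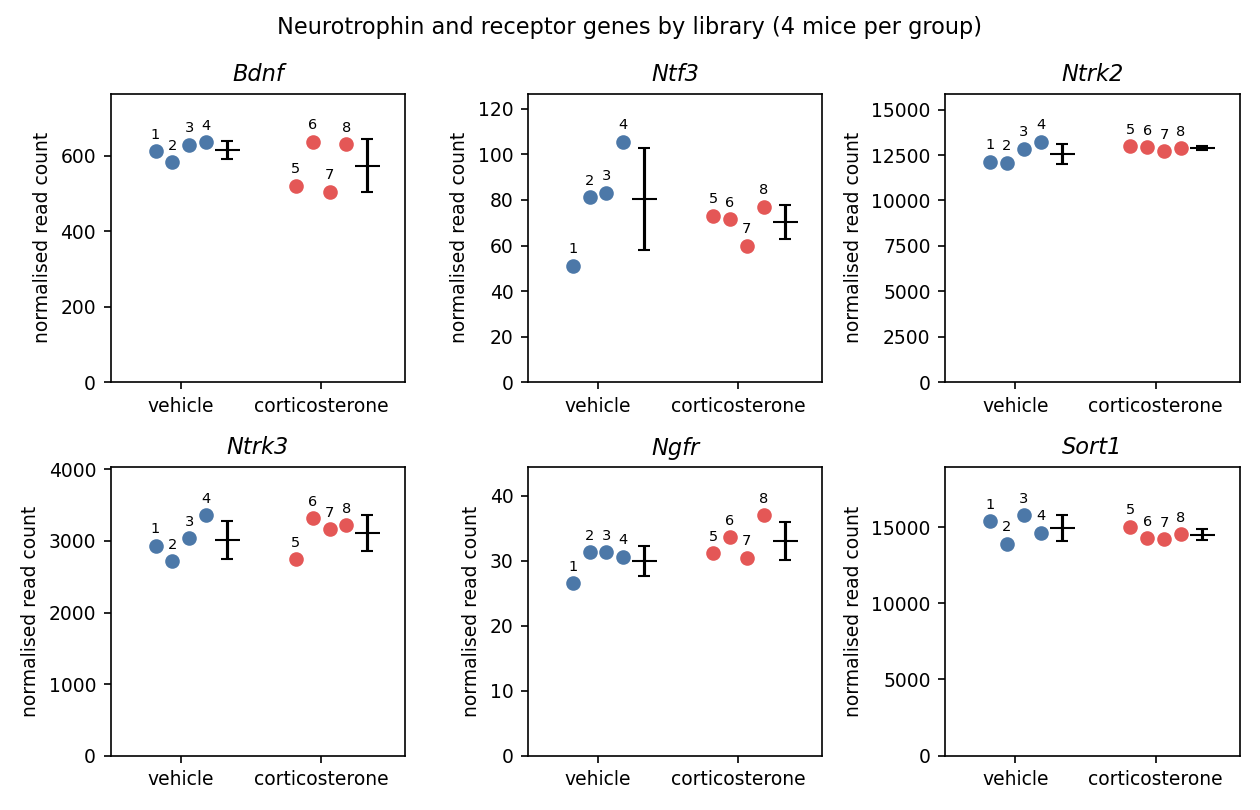
Normalised read count (linear axis from 0) of each gene in each library, with vehicle libraries 1 to 4 in blue and corticosterone libraries 5 to 8 in red. The black bar and whiskers give the mean and SD of 4 mice. The groups overlap in all 6 panels, and corticosterone 5 and 7 lie lowest for *Bdnf*.

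*Bdnf* (ENSMUSG00000048482) codes for the ligand of TrkB and lies on chromosome 2 of GRCm38 from 109674700 to 109727007 on the plus strand, with 11 annotated transcripts that begin at several alternative first exons. Its normalised read counts were 613, 583, 629 and 637 in vehicle libraries 1 to 4. In corticosterone libraries 5 to 8 they were 521, 638, 504 and 631. Corticosterone 5 and 7 were the 2 lowest of the 8 libraries, below all vehicle libraries, whereas corticosterone 6 was the highest and corticosterone 8 lay inside the vehicle range. The mean was 615 ± 23.9 (SD, n = 4) after vehicle and 574 ± 70.6 (SD, n = 4) after corticosterone, a log2FC of -0.10 (standard error 0.094, 95% interval -0.30 to 0.10, adjusted p = 0.687 in edgeR's quasi-likelihood test). The exact permutation test gave p = 0.4 (two-sided). On the linear scale, the interval reaches from -19.1% to 7.40%.

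The corticosterone libraries varied more in *Bdnf* than the vehicle libraries, although the difference in spread was not tested. The coefficient of variation was 3.88% among the 4 vehicle libraries, close to the 4.10% that counting alone gives at 480 to 648 reads, and 12.3% among the 4 corticosterone libraries. Some marker sums of corticosterone 5 and 7 lay together and others lay apart. They had the 2 lowest sums of the corticosterone libraries for interneurons (11932 and 12295) and for mural cells and fibroblasts (3174 and 3387) and the 2 highest for endothelial cells (1193 and 1182). Summed dentate granule cell markers were 3918 in corticosterone 5, the lowest of the 8 libraries, and 5210 in corticosterone 7, the highest of the corticosterone libraries. Summed CA1 pyramidal cell markers were 14460 in corticosterone 5, the highest of the 8, and 10160 in corticosterone 7. Their part in the *Bdnf* values was not tested.

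Without 1 library, the log2FC of *Bdnf* ranged from -0.15 (without corticosterone 6) to -0.04 (without corticosterone 7). In a fit corrected for GC content and transcript length, it was -0.21 (unadjusted p = 0.0170 and adjusted p = 0.387 in edgeR's quasi-likelihood test), and with the ambiguous read share as covariate it was -0.23. Of the bases in *Bdnf* exons, 896 (14.4%) also belong to the antisense gene *Gm45346*, which had 1 to 7 reads per library. The count of *Bdnf* sums over its transcripts, so a change in which first exon is used cannot be seen in it.

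*Bdnf* is known to be transcribed from several promoters, and CREB is known to act at one of them. Of the 7 windows of 250 bases before a *Bdnf* start site in RefSeq (GRCm38.p6), 2 are shown, the window that begins farthest upstream and the window with a cAMP-response-like motif. The first is chr2:109674450-109674699 and the second is chr2:109692186-109692435, both on the plus strand and read 5′ to 3′. Capitals mark AGAACA, the hexamer of the GC response element, which begins 237 bases before the start site, and TCACGTCA, a calcium and cAMP-responsive element, which begins 38 bases before the start site.
Bdnf window 1: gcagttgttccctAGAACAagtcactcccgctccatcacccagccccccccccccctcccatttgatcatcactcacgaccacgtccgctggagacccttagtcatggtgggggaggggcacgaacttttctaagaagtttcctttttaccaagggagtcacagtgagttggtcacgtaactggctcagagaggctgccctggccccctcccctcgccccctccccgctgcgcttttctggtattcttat
Bdnf window 2: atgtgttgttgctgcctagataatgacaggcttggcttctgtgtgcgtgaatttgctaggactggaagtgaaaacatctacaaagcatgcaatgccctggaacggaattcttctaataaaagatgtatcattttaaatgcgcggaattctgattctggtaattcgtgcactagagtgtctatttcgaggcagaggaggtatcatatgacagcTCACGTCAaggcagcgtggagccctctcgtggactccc
Both strands were searched. AGAACA was found in 3 of the 11 windows of these genes, all 3 before *Bdnf* start sites, and in 16.1% of 32851 windows of all genes. The 2 windows of *Ntf3*, the 1 of *Ntrk2* and the 1 of *Ngfr* did not hold it, and no windows of *Ntrk3* and *Sort1* were used. The full element, AGAACA followed after 3 bases by TGTTCT, was in 0 of the 11 windows and in 0.00913% of all. TCACGTCA was in 1 of the 11 and in 0.35% of all, and TGACGTCA in 0 of the 11 and in 1.55% of all.

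*Ntf3* (ENSMUSG00000049107, chromosome 6 from 126101412 to 126166910 on the minus strand, 3 transcripts) codes for neurotrophin-3. Its normalised read counts were 51.1, 81.3, 83.1 and 105.6 in the vehicle libraries and 73.1, 71.6, 59.9 and 77.0 in the corticosterone libraries. All 4 corticosterone libraries lay inside the vehicle range, and 0 of the 4 were above the vehicle mean. The mean was 80.3 ± 22.4 (SD, n = 4) after vehicle and 70.4 ± 7.35 (SD, n = 4) after corticosterone, a log2FC of -0.19 (standard error 0.20, 95% interval -0.62 to 0.25, adjusted p = 0.725 in edgeR's quasi-likelihood test). The exact permutation test gave p = 0.571 (two-sided).

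The vehicle libraries differed more among themselves than the corticosterone libraries, although the difference in spread was not tested. Their coefficient of variation was 27.9%, more than the 11.5% that counting gives at 52 to 107 reads. Vehicle 1 had the lowest and vehicle 4 the highest value of the 8 libraries. Without vehicle 1 the log2FC of *Ntf3* was -0.36, and without vehicle 4 it was -0.03. With the ambiguous read share as covariate it was -0.46. The annotation has no other gene on the exons of *Ntf3*.

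*Ntrk2* (ENSMUSG00000055254, chromosome 13 from 58806569 to 59133970 on the plus strand, 10 transcripts) codes for TrkB, both the form with a kinase domain and shortened forms without it. The counts add these forms together. Its normalised read counts were 12121, 12087, 12836 and 13239 in the vehicle libraries and 12983, 12919, 12709 and 12869 in the corticosterone libraries. The corticosterone libraries lay close together inside the vehicle range, and all 4 were above the vehicle mean. The mean was 12571 ± 563 (SD, n = 4) after vehicle and 12870 ± 117 (SD, n = 4) after corticosterone, a log2FC of 0.03 (standard error 0.061, 95% interval -0.10 to 0.16, adjusted p = 0.837 in edgeR's quasi-likelihood test). The interval covers changes from -6.50% to 12.1%, the narrowest of the 6 on the log2 scale. The exact permutation test gave p = 0.343 (two-sided).

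*Ntrk3* (ENSMUSG00000059146, chromosome 7 from 78175959 to 78738012 on the minus strand, 20 transcripts) codes for TrkC. Its normalised read counts were 2931, 2716, 3038 and 3361 in the vehicle libraries and 2747, 3315, 3165 and 3219 in the corticosterone libraries. Corticosterone 5 lay near the lowest vehicle library, vehicle 2, and the other 3 corticosterone libraries lay in the upper part of the vehicle range. The mean was 3011 ± 268 (SD, n = 4) after vehicle and 3111 ± 251 (SD, n = 4) after corticosterone, a log2FC of 0.05 (standard error 0.083, 95% interval -0.13 to 0.23, adjusted p = 0.836 in edgeR's quasi-likelihood test). The exact permutation test gave p = 0.629 (two-sided). The direction of *Ntrk3* depended on the fit: its log2FC was 0.10 without corticosterone 5, -0.09 with the GC content and length trend removed and -0.21 with the ambiguous read share as covariate (unadjusted p = 0.0347 and adjusted p = 0.387 in edgeR's quasi-likelihood test). The antisense gene *Gm9885* lies within *Ntrk3* but shares 0 bases with its exons, and it had 54 to 102 reads per library.

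*Ngfr* (ENSMUSG00000000120, chromosome 11 from 95568818 to 95587735 on the minus strand) codes for p75. It had the fewest reads of the 6 genes, 27 to 38 per library. Its normalised read counts were 26.5, 31.3, 31.3 and 30.6 in the vehicle libraries and 31.2, 33.6, 30.5 and 37.0 in the corticosterone libraries. All 4 corticosterone libraries were above the vehicle mean and 2 of them, corticosterone 6 and 8, were above the highest vehicle library. The mean was 29.9 ± 2.31 (SD, n = 4) after vehicle and 33.1 ± 2.96 (SD, n = 4) after corticosterone, a log2FC of 0.14 (standard error 0.20, 95% interval -0.28 to 0.57, adjusted p = 0.784 in edgeR's quasi-likelihood test). The exact permutation test gave p = 0.257 (two-sided). The coefficient of variation over the 8 libraries was 9.44%, and counting alone gives 17.8% at this depth. The interval covers changes from -17.8% to 48.5%.

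*Sort1* (ENSMUSG00000068747, chromosome 3 from 108284082 to 108361511 on the plus strand) codes for sortilin, and had the most reads of the 6 genes. Its normalised read counts were 15387, 13901, 15788 and 14639 in the vehicle libraries and 15020, 14264, 14191 and 14539 in the corticosterone libraries. All 4 corticosterone libraries lay inside the vehicle range, with 1 of them, corticosterone 5, above the vehicle mean. The mean was 14929 ± 834 (SD, n = 4) after vehicle and 14504 ± 375 (SD, n = 4) after corticosterone, a log2FC of -0.04 (standard error 0.064, 95% interval -0.18 to 0.10, adjusted p = 0.808 in edgeR's quasi-likelihood test). The exact permutation test gave p = 0.371 (two-sided). The interval covers changes from -11.7% to 6.92%. The antisense gene *Gm12523* shares 338 bases (4.47%) with the exons of *Sort1* and had 0 to 3 reads per library.

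**Figure D2:**
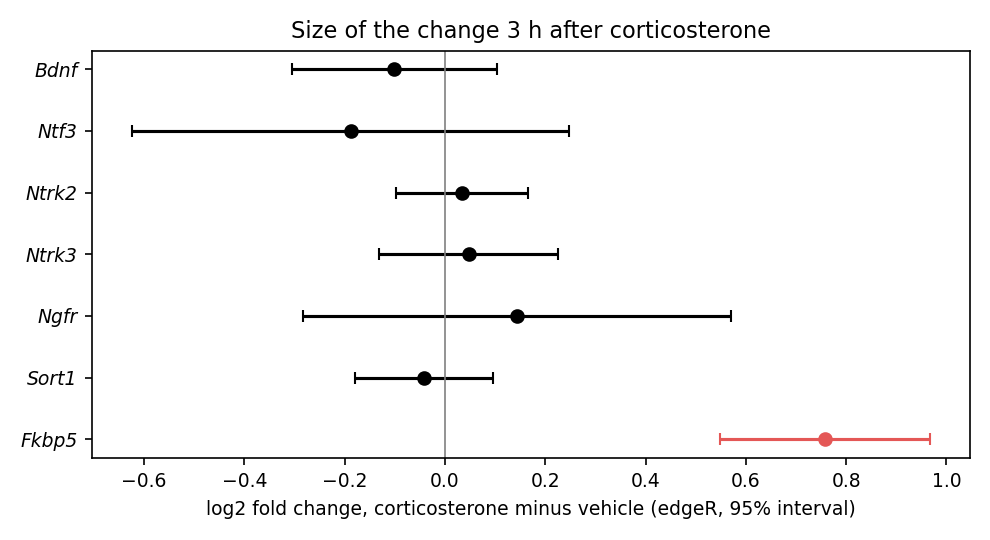
Log2 fold change of each gene, corticosterone minus vehicle, with its 95% interval from edgeR (4 mice per group). The intervals of all 6 genes (black) include 0 and that of *Fkbp5* (red, log2FC 0.76) does not.

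The 6 intervals differed in width. The standard error of the log2FC was 0.061 to 0.094 for *Ntrk2*, *Sort1*, *Ntrk3* and *Bdnf* and 0.20 for each of *Ntf3* and *Ngfr*. An adjusted p above 0.05 does not show that a gene kept its level, and the intervals give the changes that these data leave possible.

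Under 17 other fits, 0 of the 6 genes passed an adjusted p of 0.05. The log2FC of *Bdnf* ranged from -0.23 to -0.04 and that of *Ntf3* from -0.46 to -0.03, below 0 in all 17. That of *Ngfr* ranged from 0.07 to 0.30, above 0 in all 17, with the highest value once the GC content and length trend was removed. The directions of *Ntrk2* (-0.02 to 0.05), *Ntrk3* (-0.21 to 0.10) and *Sort1* (-0.07 to 0.01) changed in some fits.

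**Figure D3:**
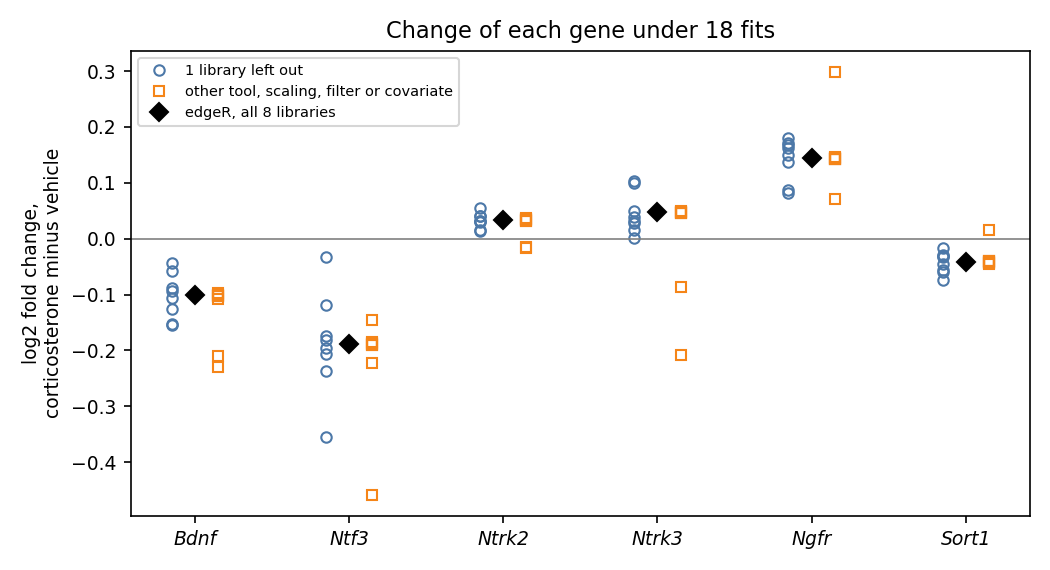
Log2 fold change of each gene (vertical axis, corticosterone minus vehicle) with all 8 libraries in edgeR (black diamond), with 1 library left out (blue circles) and with another tool, scaling, filter or covariate (orange squares). *Bdnf*, *Ntf3* and *Ngfr* stay on one side of 0 in the fits shown, and *Ntrk2*, *Ntrk3* and *Sort1* do not.

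The genes were then compared in level, as CPM (counts scaled to library size) per kilobase of annotated exon. *Sort1* was the highest with 95.8 to 108.8 over the 8 libraries, followed by *Ntrk2* with 32.7 to 35.8. *Ntrk3* with 4.70 to 5.81 and *Bdnf* with 4.23 to 5.35 overlapped, so their order was not set beyond the spread between mice. *Ntf3* followed with 1.55 to 3.21 and *Ngfr* was the lowest with 0.401 to 0.560, and neither range overlapped a neighbouring one. Among the 15989 tested genes with an annotated exon length, ranked by their mean level per kilobase of exon over the 8 libraries, *Sort1* lay at percentile 97.7, *Ntrk2* at 91.0, *Ntrk3* at 53.5, *Bdnf* at 51.8, *Ntf3* at 34.1 and *Ngfr* at 11.1. The exon length counts each annotated base once, also in transcripts that the tissue may not use. Per kilobase of the longest transcript, *Ntrk2* was at 72.1 to 79.0 and *Sort1* at 106 to 120, and the order of the 6 genes was the same, with *Ntrk3* (7.19 to 8.90) and *Bdnf* (6.17 to 7.80) again overlapping. Within each library *Ntrk3* lay above *Bdnf* on this scale, which was not so in each library per kilobase of exon.

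**Figure D4:**
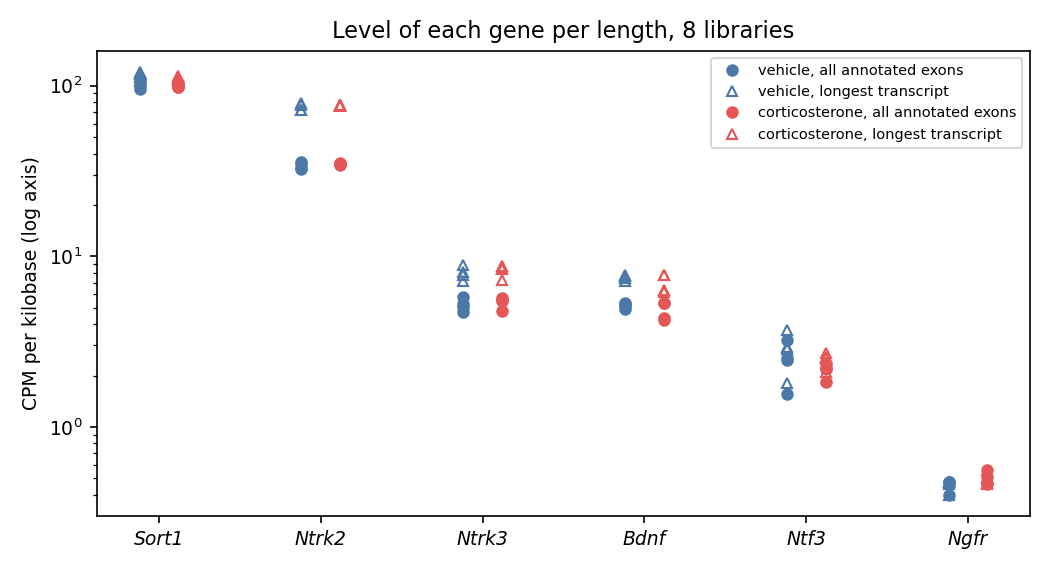
Level of each gene in CPM per kilobase (log axis) in the 8 libraries, per kilobase of all annotated exons (circles) and of the longest transcript (triangles), vehicle in blue and corticosterone in red. *Sort1* (95.8 to 108.8) and *Ntrk2* (32.7 to 35.8 per kilobase of exons) lie above the other 4 genes, and *Ngfr* lies lowest.

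Ratios of 2 genes within a library do not depend on the normalisation between libraries, and 6 were computed per kilobase of exon, on the log2 scale with a prior count of 2. In mean level, *Ntrk2* was 6.50-fold above *Ntrk3* over the 8 libraries, with a log2 ratio of 2.71 ± 0.073 (SD, n = 4) after vehicle and 2.70 ± 0.13 (SD, n = 4) after corticosterone (exact permutation test, two-sided p = 0.886). *Ntrk2* was also 6.89-fold above the gene of its ligand, *Bdnf*. The size of these folds depends on the length used. Per kilobase of the longest transcript, *Ntrk2* was at 72.1 to 79.0, *Ntrk3* at 7.19 to 8.90 and *Bdnf* at 6.17 to 7.80. Both folds were thus larger on that scale. The log2 ratio of *Bdnf* to *Ntrk2* was -2.67, -2.74, -2.71 and -2.74 in the vehicle libraries and -3.00, -2.70, -3.02 and -2.71 in the corticosterone libraries. Corticosterone 5 and 7 had the 2 lowest ratios, and the group means differed by -0.14 (exact permutation test, two-sided p = 0.286).

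The ratio of the 2 ligands varied mainly among the vehicle libraries, although the difference in spread was not tested. Its log2 value was 1.68 in vehicle 1, 0.71 to 1.03 in vehicle 2 to 4 and 0.94 to 1.26 after corticosterone. The log2 ratio of *Bdnf* to *Ntf3* was 1.09 ± 0.41 (SD, n = 4) after vehicle and 1.13 ± 0.13 (SD, n = 4) after corticosterone (exact permutation test, two-sided p = 0.886). That of *Ntf3* to *Ntrk3* was -1.10 ± 0.38 and -1.29 ± 0.21 (exact permutation test, n = 4 each, two-sided p = 0.371). In mean level per kilobase of exon without a prior count, *Ngfr* was 72.1-fold below *Ntrk2* and 213-fold below *Sort1*. Per kilobase of the longest transcript, *Ntrk2* was at 72.1 to 79.0 and *Sort1* at 106 to 120. *Ngfr* was at 0.401 to 0.560 on either scale, so both folds were larger per kilobase of the longest transcript. The log2 ratio of *Ngfr* to *Sort1* was -7.73 ± 0.16 after vehicle and -7.56 ± 0.13 after corticosterone (exact permutation test, n = 4 each, two-sided p = 0.171), and that of *Ngfr* to *Ntrk2* was -6.14 ± 0.099 and -6.04 ± 0.12 (p = 0.286 by the same exact test). With vehicle 1 left out, the difference between groups in the log2 ratio of *Ntf3* to *Ntrk3* moved from -0.19 to -0.38 (exact permutation test, two-sided p = 0.0571). Adjusted over the 6 ratios with all libraries, the p values were 0.557 to 0.886.

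Across the 8 libraries, the 15 pairs of the 6 genes were correlated on log2 CPM, and 0 pairs had an adjusted p under 0.05 (smallest 0.776 for Pearson's r and 0.834 for Spearman's rho). The Trk receptors *Ntrk2* and *Ntrk3* had r = 0.62 (exact permutation p = 0.104) and rho = 0.62 (exact permutation p = 0.115), and r was 0.19 without vehicle 1 and 2, the libraries farthest from the median of *Ntrk2*. Within groups r was 0.92 over the 4 vehicle libraries and -0.47 over the 4 corticosterone libraries, and over deviations from the group means it was 0.59 (exact permutation within groups, p = 0.158). For *Bdnf* and *Ntrk3*, r was 0.45 (exact permutation p = 0.255) and rho was 0.71 (exact permutation p = 0.0576). Without corticosterone 5 and 7, the libraries farthest from the median of *Bdnf*, r was 0.94. Within groups it was 0.93 over the 4 vehicle and 0.63 over the 4 corticosterone libraries, and 0.62 over the deviations of the 8 libraries from their group means (exact permutation within groups, p = 0.0573, and 0.430 adjusted over the 15 pairs). *Bdnf* and *Ntrk2*, the ligand and its receptor, had r = 0.10 (exact permutation p = 0.872) and rho = 0.48 (exact permutation p = 0.243), and r = 0.87 without corticosterone 5 and 7. Over deviations from the group means r was 0.32 for this pair (exact permutation within groups, p = 0.123). *Ntf3* and *Ntrk3* had r = 0.25 (exact permutation p = 0.557) and rho = 0.19 (exact permutation p = 0.665), and r = -0.37 without vehicle 1 and 4. Over deviations from the group means, the smallest p of the 15 pairs was that of *Ntf3* and *Ngfr* (r = 0.73, exact permutation within groups, p = 0.0417, and 0.430 adjusted over the pairs). Across the 8 libraries this pair had r = 0.44 (exact permutation p = 0.260) and rho = 0.36 (exact permutation p = 0.389), and r = 0.24 without vehicle 1 and 4. The highest r over these deviations was that of *Ntf3* and *Ntrk2* (r = 0.75, exact permutation within groups, p = 0.144, and 0.451 adjusted). Across the 8 libraries it was 0.57 (exact permutation p = 0.143) with rho = 0.36 (exact permutation p = 0.389), and it was -0.25 without vehicle 1 and 4. With the GC content and length trend removed, r was 0.54 for *Ntrk2* and *Ntrk3*, 0.79 for *Bdnf* and *Ntrk3*, 0.44 for *Bdnf* and *Ntrk2* and 0.41 for *Ntf3* and *Ntrk3*. In the same values r was 0.15 for *Ntf3* and *Ngfr* and 0.45 for *Ntf3* and *Ntrk2*.

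For each gene, the genes with the most similar pattern were found by Pearson's r over the 8 libraries, among about 11627 genes with at least 100 reads on average. These values are a description, since they are the highest of so many. For *Bdnf* they were *Dlst* (r = 0.96), *Gm42847* (0.94) and *Gm5171* (0.91), at 0.83, 0.96 and 0.50 with the GC content and length trend removed. For *Ntf3* they were *Spry2* (0.96), *Maf* (0.94) and *Dtx4* (0.94), and with this trend removed these were at 0.90, 0.95 and 0.97. For *Ntrk2* they were *Cacna2d3* (0.96), *Lrrc7* (0.96) and *Oprd1* (0.95), which fell to -0.08, 0.24 and -0.46 with the trend removed. For *Ntrk3* they were *Ccser2* (0.99) and *Arfgef3* (0.99), which fell to 0.66 and 0.21. For *Ngfr* they were *Armcx2*, *Rspo3* and *Spopl* (0.94 each), at 0.92, 0.44 and -0.43 with the trend removed. For *Sort1* they were *Rbfox2* (0.96), *Camk2a* (0.96) and *Camta2* (0.95), at 0.90, 0.77 and 0.64.

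Around the 6 genes, 7 lists held 49 further genes of neurotrophin processing and signalling, of which 45 passed the filter on low counts. In edgeR's quasi-likelihood test 0 of the 45 were called, as in DESeq2, and 5 had an unadjusted p under 0.05 in edgeR, against 9.03% of all genes tested, and 7 in DESeq2, against 8.3%. These 5 were *Plat*, higher after corticosterone (as 4.51% of all genes were), and *Gab1*, *Rtn4r*, *Shc3* and *Crtc1*, lower (4.52% of all genes). The log2FC was below 0 in 30 of the 45, against 49.3% of all genes, with a median of -0.11 against 0.0036. The group ranges were separate in 2 of the 45, *Plat* and *Gab1*, against 3.66% of all genes. These values depended on the fit. With the GC content and length trend removed, the median was -0.03. Without corticosterone 5, 9 of the 45 were called (1 higher and 8 lower, where 10.2% of all genes were called), and with the ambiguous read share as covariate the median was 0.03 and 2 were called, against 0.237% of all genes.

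*Ntf5*, the gene of neurotrophin-4, which also acts on TrkB, had 1 to 9 reads per library and did not pass the filter. The cholinergic markers *Chat* (0 to 2 reads), *Slc18a3* (0 to 5) and *Slc5a7* (5 to 20) did not pass it either. Cholinergic neurons of the basal forebrain are the best known site of *Ngfr* in the forebrain.

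Of the genes that mature or release neurotrophins, 6 of 8 were tested, with 4 log2FC values above 0 and 2 below (4 below with the GC content and length trend removed and 1 with the ambiguous read share as covariate). *Plg* had 0 to 4 reads per library and *Mmp3* had 0 in each, which allows up to 3. *Plat*, coding for tissue plasminogen activator, which leads to cleavage of proBDNF outside the cell, had 814 ± 33.3 normalised counts after vehicle and 914 ± 23.1 after corticosterone, with no overlap (SD, n = 4 each). Its log2FC was 0.17 (standard error 0.068, adjusted p = 0.532 in edgeR's quasi-likelihood test). *Furin*, a protease that cleaves proneurotrophins inside the cell, had 738 ± 103 and 618 ± 92.6, a log2FC of -0.26 (adjusted p = 0.545 in the same edgeR test). Of the sorting receptors related to sortilin and the co-receptors of p75, 4 of 6 were below 0, and 5 and 3 in the same 2 fits. *Rtn4r*, the Nogo receptor, had 1310 ± 86.9 and 1004 ± 232, a log2FC of -0.38 (adjusted p = 0.476 in the same edgeR test), and *Lingo1*, its partner in the complex with p75, had a log2FC of -0.25. With the GC content and length trend removed these were -0.18 and -0.11, and with the ambiguous read share as covariate they were 0.01 and 0.16.

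Among the cytoplasmic partners of p75, 3 of 4 were below 0, against 49.3% of all genes, but 1 of 4 with the GC content and length trend removed and 1 of 4 with the ambiguous read share as covariate. In the fit without these, *Arhgdia*, which codes for a GDP dissociation inhibitor, was at -0.14 and *Maged1* at -0.08. Among the 14 adaptors and effectors of Trk receptors, 9 were below 0, and 7 and 6 in the same 2 fits. *Gab1*, a docking protein, had 405 to 494 normalised counts after vehicle and 324 to 372 after corticosterone (n = 4 each), with no overlap and a log2FC of -0.30 (standard error 0.095, adjusted p = 0.4497 in edgeR's quasi-likelihood test). *Shc3*, an adaptor found in neurons, had a log2FC of -0.30. It was -0.21 with the GC content and length trend removed and -0.13 with the ambiguous read share as covariate. Of the 6 regulators of *Bdnf* transcription, 3 were below and 3 above 0 (3 below with the GC content and length trend removed, 4 with the ambiguous read share as covariate and 1 without vehicle 2). *Crtc1*, a coactivator of CREB, was at -0.28, and at -0.20 and 0.10 in the first 2 of these fits. *Creb1* itself was at 0.17, and at 0.02 and -0.17 in them. Without corticosterone 5, *Furin*, *Rtn4r*, *Lingo1*, *Arhgdia*, *Gab1*, *Shc3*, *Crtc1* and *Creb1* passed an adjusted p of 0.05, together with *Vgf*. With the ambiguous read share as covariate, the 2 called were *Sh2b2* and *Mef2c*, at 1.19 and -0.52. *Vgf*, *Sh2b2* and *Mef2c* are named after their values were seen.

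The 8 genes known to be raised by BDNF in neurons all had a log2FC below 0, although 0 of the 8 had an unadjusted p under 0.05 in edgeR and 0 were called by edgeR or DESeq2. *Arc*, *Vgf*, *Egr1*, *Egr2*, *Fos*, *Nptx2*, *Dusp6* and *Npy* had a median of -0.23, where 49.3% of all genes were below 0. Their summed level was 7608 to 10336 normalised counts after vehicle and 6281 to 9233 after corticosterone, with overlap (exact permutation test, two-sided p = 0.229). The lowest log2FC was that of *Egr2*, an immediate early transcription factor with 7 to 38 reads per library, at -0.87 (adjusted p = 0.550 in edgeR's quasi-likelihood test), and it was -0.36 without vehicle 3 and -0.55 in limma-voom. *Npy*, the gene of neuropeptide Y, was at -0.21. Without corticosterone 5, 5 of the 8 had an unadjusted p under 0.05, where 29% of all genes did, and 1, *Vgf*, was called, where 10.2% were. The median was then -0.34. With no filter on low counts 4 had an unadjusted p under 0.05, against 8.9% of all genes, and without vehicle 3 the median was -0.14. The directions changed with the fit: 6 of the 8 were below 0 with the GC content and length trend removed and 3 of the 8 with the ambiguous read share as covariate. That share went largely with the group, so the covariate fit cannot separate its part from that of the treatment. These genes also respond to neuronal activity, and they are not a measure of BDNF alone.

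**Figure D5:**
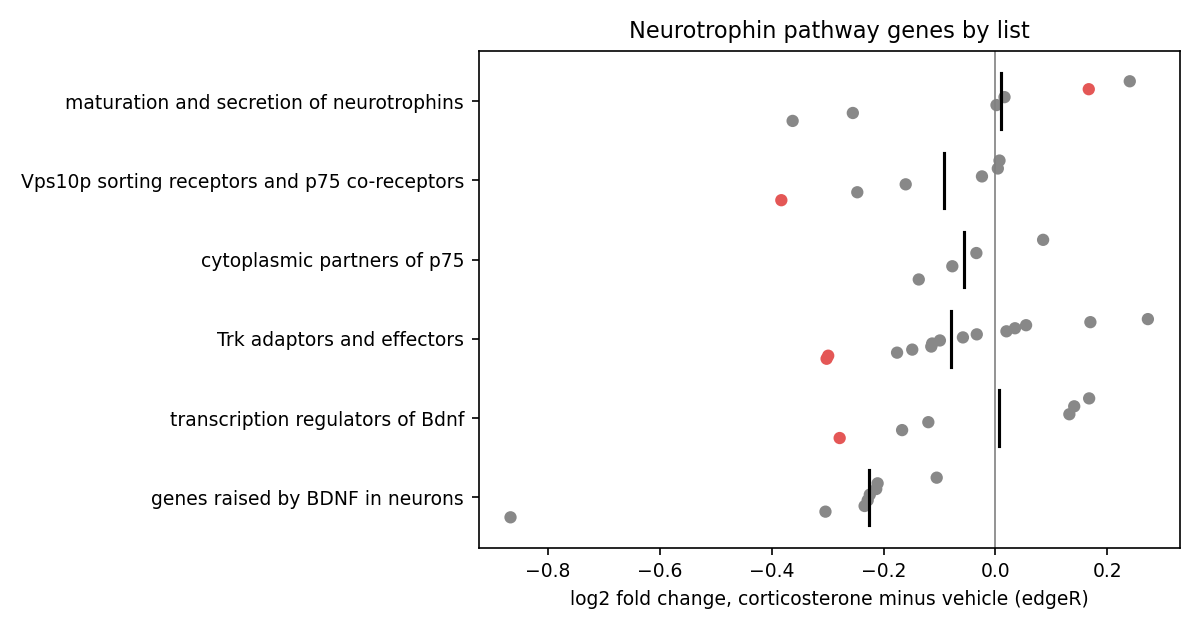
Log2 fold change (horizontal axis, corticosterone minus vehicle, edgeR) of 44 tested genes in the 6 lists with more than 1 tested gene, 1 point per gene, with the median of each list as a black bar. Red points mark the 5 genes with an unadjusted p under 0.05, and the 8 genes raised by BDNF lie left of 0.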

How the data were processed

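RNA-seq was done on 8 libraries of mouse ventral hippocampus, stranded and paired-end. The authors aligned the reads to mm10, counted reads per gene with HTSeq and deposited a table of raw counts, whole numbers without normalisation. The annotation release and the strand setting of the counting are not given in the sources used here. All 8 columns were mapped from the labels and 0 were left out. The 5 summary rows of HTSeq were left out of library sizes, and 84.6% to 86.3% of the reads of a library were on genes. No batch is named, and p values measure the spread between these mice.

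Symbols came from GENCODE M21 (50462 of 50686 identifiers), promoter windows from RefSeq on GRCm38.p6 and transcript sequences from GENCODE M21. Counts were scaled by TMM, low genes were removed by filterByExpr, and the groups were compared in the quasi-likelihood test of edgeR 4.0.16 (R 4.3.3), with Benjamini-Hochberg adjustment over 16018 genes. Log2 values used a prior count of 2. Exact permutation tests (two-sided) took all 70 assignments of 4 against 4 (fewer with a library left out), and for correlations all 40320 orders of the 8 libraries, or the 576 within groups. Alternatives were DESeq2 1.42.0 (the study's tool, in another version), its size factors or upper-quartile scaling in edgeR, no filter, a minimum of 10 counts in each library, limma-voom (limma 3.58.1), robust dispersion, a correction of each library by splines (5 degrees of freedom) over GC content and transcript length, the ambiguous read share as covariate, an adjusted p of 0.1, a prior count of 0.5 and each library left out. The scripts were tested on simulated data.

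The 6 genes, the 7 pathway lists and the 12 marker lists were chosen with earlier results of these data known. Named genes are the 6, *Fkbp5*, the 3 genes most correlated with each, pathway genes called by edgeR or DESeq2, and the 2 of each list with the smallest edgeR p. A few genes that this rule picks are left out of the text but stay in the list counts. Other genes are named only where stated or as full lists.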

Additional observations from a re-analysis of the deposited data

Results flagged for a closer look

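Each of the 6 genes and 6 ratios was checked in both groups for a library that stood apart. This was so in 2 of the 24 sets of 4 values, and about 1.2 would be found by chance. The normalised count of *Ngfr* was 26.5 in vehicle 1 and 30.6 to 31.3 in the other vehicle libraries, a gap of about 4 reads at 27 to 38 reads per library. The log2 ratio of *Ntrk2* to *Ntrk3* was 2.89 in corticosterone 5 and 2.61 to 2.65 in the other corticosterone libraries.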

How the results depend on the processing

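No paired analysis was possible because vehicle libraries are numbered 1 to 4 and corticosterone libraries 5 to 8. The number of the 6 genes called was 0 in all 17 alternatives, and also 0 at an adjusted p of 0.1. Corrected for GC content and transcript length, the log2FC reversed to -0.0161 for *Ntrk2*, -0.0860 for *Ntrk3* and 0.0451 for *Arhgdia*. With the ambiguous read share as covariate, it reversed to -0.0143 for *Ntrk2*, -0.21 for *Ntrk3*, 0.0146 for *Sort1*, 0.15 for *Furin*, 0.0112 for *Rtn4r*, 0.16 for *Lingo1*, 0.10 for *Arhgdia*, 0.10 for *Maged1*, 0.10 for *Crtc1*, -0.17 for *Creb1* and 0.0892 for *Npy*. Because this share went largely with the group, the covariate fit cannot separate its part from that of the treatment. The cause of the reversals was not tested. The number of pathway genes called was 2 with this covariate and 0 to 9 with 1 library left out (9 without corticosterone 5). The number of all genes called was 63 with DESeq2, 79 with no filter, 0 with at least 10 counts in every sample (1330 at an unadjusted p under 0.05), 21 with the correction, 38 with the covariate, and 0 to 1651 with 1 library left out (1651 without corticosterone 5, 19 without vehicle 1). With 1 library left out, the difference between groups was -0.0892 to 0.23 for the log2 ratio of *Bdnf* to *Ntf3*, -0.0756 to 0.0172 for *Ntrk2* to *Ntrk3*, -0.19 to -0.09 for *Bdnf* to *Ntrk2*, -0.38 (without vehicle 1) to -0.10 (without vehicle 4) for *Ntf3* to *Ntrk3*, 0.05 (without corticosterone 8) to 0.14 for *Ngfr* to *Ntrk2* and 0.11 (without vehicle 1) to 0.23 for *Ngfr* to *Sort1*. The correlation of *Ntf3* with *Ntrk3* was -0.37 without the 2 farthest libraries. Depth limits *Ngfr*, with 27 to 38 reads per library.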
